A study of Homo sapiens with 12 samples.

Results

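The comparison described here sets light polysome RNA against total RNA in MCF10A mammary epithelial cells in which the translation initiation factor eIF4G1 had been silenced. Its members are 4 of the 12 arrays of the study, matched by title into 2 pairs: the light polysome pool (LMW) and the total RNA (Total) of knockdown (KD) cells given 10 Gy, and the same preparations of mock-treated KD cells. The other 8 arrays hold the heavy polysome pools (HMW) of the same KD conditions and the LMW, HMW and Total preparations of wild-type (WT) cells given 10 Gy or mock treatment. Each of these arrays is the only one of its kind.

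KD cells carried a short hairpin RNA against eIF4G1 under doxycycline control, and 10 Gy was delivered by a linear accelerator. The sources used here state neither whether WT cells carried a hairpin or received the drug, nor the time between irradiation and harvest, nor how many clones were used. Hairpin, drug and loss of eIF4G1 therefore cannot be told apart in any comparison of KD with WT cells. MCF10A is widely used as a non-tumorigenic line, whereas its label here gives a breast cancer origin. All pools came from cells held in cycloheximide, which stops ribosomes on their mRNAs. The gradients were loaded with lysate from which nuclei had been spun out, and the sources used here do not state whether Total RNA came from the same cultures. Ribosome numbers are labelled for the WT mock pools, 1 to 3 in LMW and 4 or more in HMW, and the KD pools carry the same names.

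In a sucrose gradient an mRNA travels further the more ribosomes it carries. The light pool holds mRNAs with few ribosomes, either because their coding sequence is short or because they are initiated slowly, and an RNA that is not translated is largely left out of both pools. eIF4G1 is the scaffold that joins the cap-binding protein eIF4E, the helicase eIF4A and, through eIF3, the small ribosomal subunit. An array is filled with a fixed amount of RNA and then scaled, so a value states a gene's share of the RNA in its preparation, and not how much of the cell's mRNA was in that pool.

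EIF4G1 itself, on chromosome 3, checks the labels. It read 87.2 (10 Gy) and 127 (mock) in the KD LMW pools, 189 (10 Gy) and 185 (mock) in the KD HMW pools and 176 (10 Gy) and 163 (mock) in KD Total RNA, against 370 (10 Gy) and 474 (mock), 2003 (10 Gy) and 2902 (mock), and 864 (10 Gy) and 1028 (mock) in the WT LMW, HMW and Total arrays. All 6 KD arrays were below all 6 WT arrays. Within KD cells the remaining EIF4G1 mRNA was lower in LMW than in Total by −0.69 ± 0.22 on the log2 scale (SE, 2 pairs, limma adjusted p = 0.0254). The LMW and Total pair of WT mock cells stood apart from the other pairs. Its LMW minus Total differences had an SD over genes of 1.42, against 0.968 in the WT 10 Gy pair and 0.946 (10 Gy) and 0.953 (mock) in the KD pairs. The probe for 18S ribosomal RNA read 8.65 to 9.38 on the log2 scale in the 8 polysome pools and 12.1 to 12.3 in the 4 Total arrays, and a bacterial spike-in control (bioB) averaged 9.61 (10 Gy) and 8.81 (mock) in the KD LMW arrays and 8.60 (10 Gy) and 8.29 (mock) in the KD Total arrays. On the 3′ minus 5′ probes of ACTB, a reading of RNA integrity, the KD LMW arrays had 1.67 (10 Gy) and 1.41 (mock) and the KD Total arrays 1.55 (10 Gy) and 2.10 (mock), the last being the highest of the 12 arrays. On those of GAPDH the KD LMW arrays had 0.422 (10 Gy) and 0.401 (mock) and the KD Total arrays 0.270 (10 Gy) and 0.227 (mock), and the part of either in the results was not tested. Of the 10 mammary epithelial markers with a usable probe set, 9 were at 64 or more on all 12 arrays. The exception was CDH1, at 38.6 (10 Gy) and 23.8 (mock) in WT LMW. All 7 endothelial markers, and 7 of the 8 immune markers on the array, lay below an intensity of 64 on every array, and so did 6 of 10 fibroblast and 6 of 10 luminal markers. In such bulk RNA, fewer cells of a type and less RNA per cell cannot be told apart.

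Light polysome RNA differed widely from total RNA in KD cells, and did so in nearly the same way after 10 Gy and after mock treatment. Of 10157 genes tested, 2671 (26.3%) were higher and 2610 (25.7%) lower in LMW than in Total, together 52% (limma over all 12 arrays with the condition as a block, Benjamini-Hochberg adjusted p under 0.05). At 2-fold or more, 1009 of the called genes were higher and 1720 lower. All 5281 called genes had the same sign in both pairs, and 747 of the genes tested had opposite signs. A call rests on the mean of both pairs, which favours such agreement. The median difference of all genes was 0.05 on the log2 scale. Across genes, which are not independent replicates, the 10 Gy pair and the mock pair had a Pearson r of 0.954, whereas the KD 10 Gy and WT 10 Gy pairs had 0.599 and the KD mock and WT mock pairs 0.796. Nothing in the labels says that the samples came from separate cultures, and the p-values reflect how far these arrays differ among themselves, which may be technical. The number of called genes fell to 746 without the KD mock arrays and to 748 without the KD 10 Gy arrays, where the lone pair is assumed to vary like the other conditions, and was 8030 with only the 4 arrays of the comparison.

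**Figure D1:**
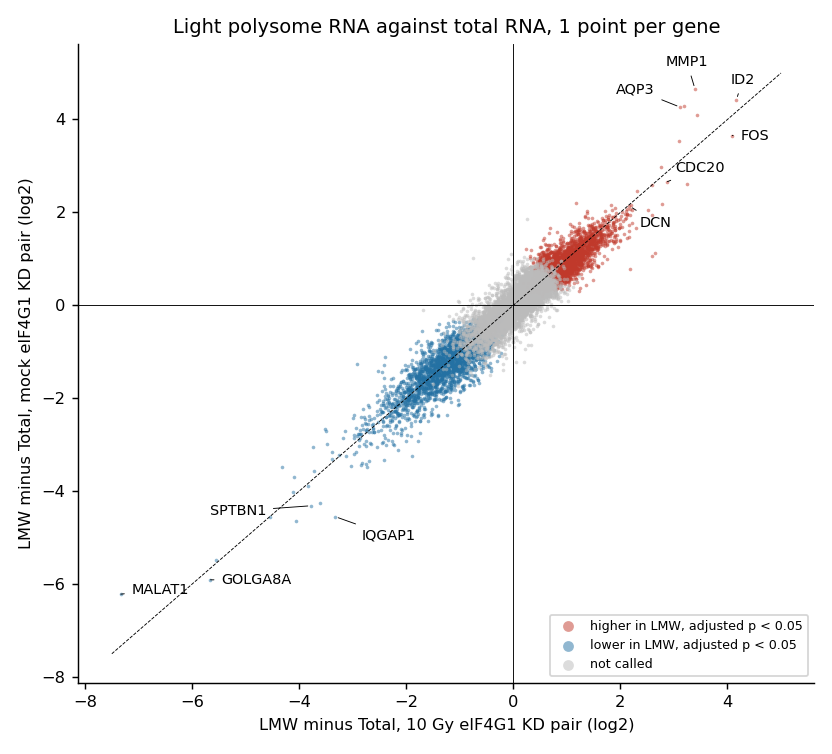
LMW minus Total (log2) of each gene in the 10 Gy KD pair (horizontal) against the mock KD pair (vertical), with genes called higher in red, called lower in blue and not called in grey; the dashed line marks equal values. The points lie along the line (Pearson r across genes of 0.954), with MALAT1 and GOLGA8A at the low end and ID2, MMP1 and FOS at the high end.

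Nuclear noncoding RNAs were among the RNAs most depleted from the light pool. MALAT1, a long noncoding RNA of nuclear speckles, read 18.7 (10 Gy) and 32.5 (mock) in LMW, against 3006 (10 Gy) and 2416 (mock) in Total. FTX, a noncoding RNA of the X inactivation centre, read 9.452 (10 Gy) and 11.97 (mock) in LMW, against 444 (10 Gy) and 531 (mock) in Total. MALAT1 and FTX were both near the bottom of the intensity scale in LMW, so the fitted log2 differences of −6.77 ± 0.30 and −5.51 ± 0.24 (SE, limma adjusted p = 2.47e-06 for each) have no exact size. Both passed the filter on low values only through the Total arrays, which fixes that their polysome pools lie lower. All 8 other MALAT1 probe sets that could be read were lower in LMW too. Of the 9 RNAs kept from the list of nuclear noncoding RNAs, which also holds NORAD, 7 were called lower and 1 higher, with a median of −2.13. With no filter 9 of 18 were lower and 3 higher, with a median of −0.83. Among the 9, the RNA called higher was MEG3, an imprinted noncoding RNA. It read 74.3 (10 Gy) and 68.3 (mock) in LMW, against 41.7 (10 Gy) and 34.1 (mock) in Total. Its fitted 0.92 ± 0.27 (limma adjusted p = 0.0195) has no exact size, as both Total arrays lay below 64. With the filter at a log2 of 7, 6 of the 7 RNAs then kept were lower and 0 higher. NORAD, a noncoding RNA best known from the cytoplasm as a binder of PUMILIO proteins, read 967 (10 Gy) and 700 (mock) in LMW, against 2758 (10 Gy) and 2449 (mock) in Total, and its difference of −1.66 ± 0.35 was called (limma adjusted p = 0.00413).

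Transcripts that host small nucleolar RNAs in their introns were nearly all lower in the light pool. Of 7 kept, 6 were called lower and 0 higher, with a median of −1.97. TAF1D, which encodes a subunit of the RNA polymerase I factor SL1 and hosts several such RNAs, read 13.8 (10 Gy) and 15.2 (mock) in LMW, against 275 (10 Gy) and 171 (mock) in Total. ZFAS1, a spliced host RNA without a known protein, read 2114 (10 Gy) and 1817 (mock) in LMW, against 7586 (10 Gy) and 7793 (mock) in Total, a difference of −1.97 ± 0.18 (SE, limma adjusted p = 0.000118). SNHG32, SNHG19, EPB41L4A-AS1 and DANCR were called lower with differences between −2.62 and −0.88. SNHG17, at −0.38, was not (limma adjusted p = 0.133). MIR205HG, the host transcript of a microRNA of basal epithelium, read 183 (10 Gy) and 119 (mock) in LMW, against 1191 (10 Gy) and 1205 (mock) in Total.

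By annotated type, 72 of 211 long noncoding RNA genes (34.1%) were lower and 29 (13.7%) higher, whereas 25.4% of the 9854 protein-coding genes were lower and 26.7% higher. A depletion of 4-fold or more was found for 22 of the noncoding genes (10.4%) and for 2.52% of the protein-coding ones. Transcribed pseudogenes had 29 of 72 lower (40.3%) and 9 higher (12.5%), and 11 of them (15.3%) were depleted 4-fold or more. These shares include RNAs that passed the filter on low values only through the Total arrays, such as MALAT1 and FTX. For such RNAs the filter fixes the direction in advance. They were not counted by type, and how far the filter sets the differences between types was not tested. Among single genes, GOLGA8A, a golgin gene of chromosome 15, read 17.9 (10 Gy) and 14.5 (mock) in LMW, against 902 (10 Gy) and 872 (mock) in Total. ANKRD36B read 7.75 (10 Gy) and 7.82 (mock) in LMW, against 182 (10 Gy) and 183 (mock) in Total. GOLGA8A and ANKRD36B also passed the filter on low values only through the Total arrays, which fixes the direction of their differences. PNISR and CLK1, a splicing-speckle protein and a kinase of splicing factors, were lower by −2.42 ± 0.35 and −1.63 ± 0.38, but of the 27 SR factors and CLK kinases 9 were lower and 1, CLK3, higher, with a median of −0.02.

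Among mRNAs, the largest depletions included several genes for very large proteins. SPTBN1 encodes the spectrin chain of the membrane skeleton. It read 148 (10 Gy) and 89.6 (mock) in LMW, against 2022 (10 Gy) and 1782 (mock) in Total, a difference of −4.04 ± 0.27 (SE, limma adjusted p = 1.91e-05). MACF1, a giant linker between actin and microtubules, read 107 (10 Gy) and 110 (mock) in LMW, against 1019 (10 Gy) and 1029 (mock) in Total, and all 5 of its other readable probe sets had the same sign. IQGAP1, a scaffold of the cell cortex, read 243 (10 Gy) and 105 (mock) in LMW, against 2452 (10 Gy) and 2461 (mock) in Total. The depletion of IQGAP1 was deeper in the mock pair than in the 10 Gy pair by 1.21 on the log2 scale. UTRN, the dystrophin relative utrophin, read below 30 in both LMW pools, 28.4 (10 Gy) and 17.9 (mock), against 474 (10 Gy) and 447 (mock) in Total. It too passed the filter on low values only through the Total arrays, which fixes that direction.

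The depletion was not limited to large proteins. UFM1, a small ubiquitin-like modifier, read 218 (10 Gy) and 145 (mock) in LMW, against 1390 (10 Gy) and 1130 (mock) in Total, a difference of −2.82 ± 0.44. FAM204A read 90.0 (10 Gy) and 119 (mock) in LMW, against 819 (10 Gy) and 860 (mock) in Total. IFI6, a small interferon-induced membrane protein, read 104 (10 Gy) and 90.3 (mock) in LMW, against 704 (10 Gy) and 688 (mock) in Total. For none of these genes did the LMW and Total arrays overlap, which their choice among the lowest called genes largely fixes. EMB, an adhesion protein, and SLC7A11, the cystine transporter, completed the lowest 10 of the genes at 64 or more on all 4 arrays, at −2.90 ± 0.51 and −2.86 ± 0.36.

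Across the 9854 protein-coding genes the difference fell with the genomic span of the gene, the distance between its annotated ends in RefSeq (GRCh38.p14), which includes introns and is only a loose stand-in for mRNA length. In 5 bins of equal size the median LMW minus Total in KD cells was 0.40, 0.30, 0.11, −0.24 and −0.41 from the shortest to the longest genes, with median spans of 5.39, 15.4, 30.5, 58.9 and 150 kb. In the shortest bin 38.6% of genes were called higher and 16.7% lower, and in the longest 12.7% higher and 35.3% lower. Spearman's rho across genes was −0.276 in the 10 Gy pair and −0.289 in the mock pair. The heavy pool of the same cells gave medians of 0.02 to 0.06 in every bin and a rho of 0.03 against the same Total arrays. WT cells gave a rho of −0.435 for LMW minus Total. These are descriptions across genes of shared arrays, with no test.

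**Figure D2:**
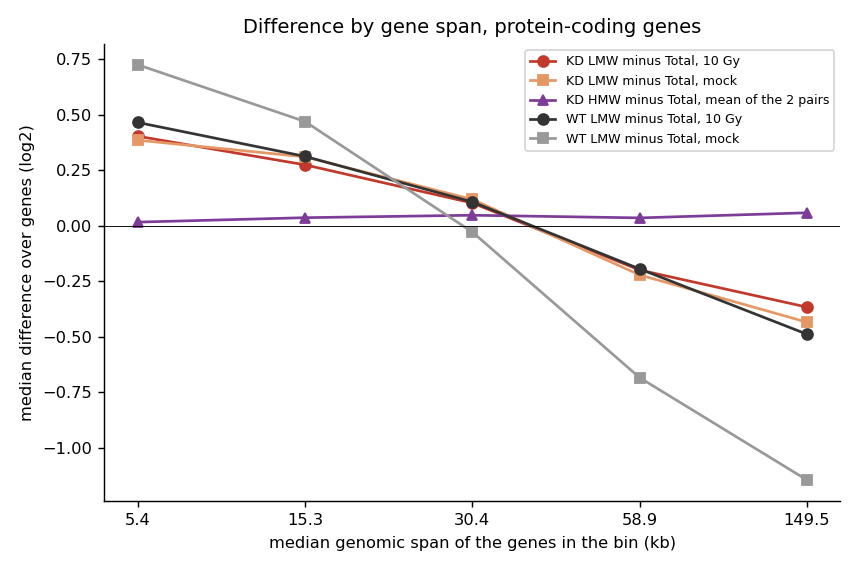
Median difference (log2) in 5 bins of protein-coding genes ordered by genomic span (horizontal axis, median span of the bin in kb), for the 10 Gy and mock pairs of KD and WT cells and for the heavy pool of KD cells. Across the bins the KD light pools run between 0.40 and −0.37 (10 Gy) and between 0.39 and −0.43 (mock), the KD heavy pool stays between 0.02 and 0.06, and the WT mock pair has the steepest line.

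Genes of the extracellular matrix and its receptors were mostly depleted from the light pool. Of 29 kept members of the collagen, laminin and integrin list, 20 were called lower and 2 higher, with a median of −1.28 against 0.05 for all genes. COL4A1, a chain of basement membrane collagen, read 92.1 (10 Gy) and 103 (mock) in LMW, against 594 (10 Gy) and 536 (mock) in Total, a difference of −2.54 ± 0.19 (SE, limma adjusted p = 5.09e-05). COL12A1 and TNC, a fibril-associated collagen and the matrix protein tenascin C, were at −2.58 ± 0.24 and −2.89 ± 0.25. VCAN, the large proteoglycan versican, read 146 (10 Gy) and 113 (mock) in LMW, against 1078 (10 Gy) and 926 (mock) in Total. The 2 members called higher were COL1A1 and COL6A1, at 0.92 ± 0.35 and 0.81 ± 0.21, and a further COL6A1 probe set had the opposite sign. FAP, a fibroblast marker, was lower at −1.99 ± 0.36 (limma adjusted p = 0.00201), whereas PDGFRB was higher at 0.82 ± 0.28 (limma adjusted p = 0.0335).

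Of 25 golgins and endosome tethers, coiled-coil proteins that capture vesicles, 14 were lower and 3 higher, with a median of −1.27. This depended on the probe sets: with the median of probe sets 6 of 18 were lower, at a median of −0.31, and without a KD condition 3 and 5 of 25 were lower. AKAP9, a giant scaffold of the Golgi and centrosome, read 111 (10 Gy) and 51.3 (mock) in LMW, against 591 (10 Gy) and 520 (mock) in Total. GOLGA4 read 173 (10 Gy) and 169 (mock) in LMW, against 1247 (10 Gy) and 1157 (mock) in Total. The members called higher were RABEP2, GCC1 and TRIP10, at 0.74 to 1.59. The mammary epithelial markers went both ways, with 4 of 10 higher and 3 lower. The cadherin CDH1 read 863 (10 Gy) and 775 (mock) in LMW, against 1457 (10 Gy) and 1269 (mock) in Total, and EPCAM was at −1.22 ± 0.27. The cadherin CDH3 was higher, at 0.50 ± 0.17 (limma adjusted p = 0.0298), and the integrin ITGB4, at 0.48 ± 0.22, was not called (limma adjusted p = 0.0844).

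Ribosomal protein mRNAs carry a terminal oligopyrimidine (TOP) motif, a run of C and T bases that begins at the cap and places their translation under control of the growth kinase mTOR. The 3 members with the lowest and 3 with the highest LMW minus Total difference are shown around their annotated start, 10 bases before it and 20 from it on, with the pyrimidine run over the start in capitals (RefSeq promoters, GRCh38.p14, transcript strand).
RPS12: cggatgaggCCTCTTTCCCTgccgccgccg
RPS25: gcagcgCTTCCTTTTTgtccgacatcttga
RPS24: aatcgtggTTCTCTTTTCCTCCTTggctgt
RPL27A: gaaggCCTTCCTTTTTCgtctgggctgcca
RPLP2: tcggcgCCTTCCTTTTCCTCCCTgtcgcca
RPS3: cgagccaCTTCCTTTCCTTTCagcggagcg
These windows lie at chr6:132814559-132814588 (plus strand), chr11:119018324-119018353 (minus), chr10:78033853-78033882 (plus), chr11:8682782-8682811 (plus), chr11:809957-809986 (plus) and chr11:75399508-75399537 (plus). The runs were 11, 10 and 16 bases long in the low members and 12, 17 and 14 in the high ones, so the lengths of the 2 sets overlapped.

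Most ribosomal protein mRNAs were modestly lower in the light pool. Of 52 kept genes 37 were called lower and 1 higher, with a median of −0.39. RPS12, a protein of the small subunit, read 5959 (10 Gy) and 5767 (mock) in LMW, against 16270 (10 Gy) and 16930 (mock) in Total, a difference of −1.50 ± 0.12 (SE, limma adjusted p = 7.46e-05), but its other readable probe set had the opposite sign, at 0.82. RPS25, whose product contacts viral internal ribosome entry sites, read 4164 (10 Gy) and 4067 (mock) in LMW, against 11470 (10 Gy) and 10980 (mock) in Total, at −1.45 ± 0.10. RPS24 was at −1.30 ± 0.13. In each of these 3 genes both LMW arrays were below both Total arrays, which their choice as the lowest members largely fixes. RPS3, which also has a role in DNA repair, was the member called higher, at 14340 (10 Gy) and 14840 (mock) in LMW, against 12310 (10 Gy) and 12460 (mock) in Total (0.24 ± 0.07, limma adjusted p = 0.021). RPL27A and RPLP2 had the highest differences, 0.75 ± 0.32 and 0.58 ± 0.28, and did not pass (limma adjusted p = 0.0739 and 0.0961). Many ribosomal protein probe sets end in _x_at or _s_at, which can read related transcripts and pseudogenes. Without such probe sets 21 members of the cytosolic ribosomal proteins were left, of which 14 were lower and 1 higher, with a median of −0.37. Over all 52, 18 and 20 were lower when a KD condition was left out.

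A start of the TOP kind, here a C at the annotated start followed by 4 bases that are each C or T on the transcript strand, was present in 33 of the 46 ribosomal protein genes with a promoter in the table (71.7%), in 5.53% of all kept genes with one and in 4.07% of all 35116 promoters. The 33 had a median of −0.45, with 24 called lower, and the 13 without it −0.26, with 8 called lower. Genes outside the family with the same start had shares near those of all kept genes with a promoter. Of 432, 112 (25.9%) were lower and 115 (26.6%) higher, with a median of 0.08. Of all kept genes with a promoter 26.1% were lower and 26.1% higher, with a median of 0.04. The start is a match of letters, not a measured cap site. Among 16 elongation factors and other mRNAs of the TOP class, 6 were lower and 2 higher. NAP1L1, a histone chaperone, and NACA, part of the nascent chain complex, were at −1.67 ± 0.22 and −1.29 ± 0.14, while VIM and EEF1D were at 0.44 ± 0.09 and 0.33 ± 0.08.

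The initiation factors themselves were split. Of 12 subunits of eIF3, the factor that eIF4G1 binds, 5 were higher and 3 lower. EIF3B read 5936 (10 Gy) and 6357 (mock) in LMW, against 2547 (10 Gy) and 2556 (mock) in Total, at 1.27 ± 0.15, although only 2 of its 4 other readable probe sets had that sign. EIF3A, the largest subunit, read 1533 (10 Gy) and 1288 (mock) in LMW, against 2779 (10 Gy) and 2620 (mock) in Total, at −0.94 ± 0.26. Of 12 members of the cap-binding complex and partners 5 were lower and 0 higher. That count did not hold in other settings: with the median of probe sets 1 of 10 was lower and 1 higher, without the condition block 2 were lower, and without a KD condition 1 and 0. The cap-binding protein EIF4E read 293 (10 Gy) and 469 (mock) in LMW, against 1035 (10 Gy) and 943 (mock) in Total (−1.42 ± 0.26, limma adjusted p = 0.00193). PABPC1, the poly(A)-binding protein, was lower by −0.93 ± 0.21. The highest members were MKNK2, a kinase of eIF4E, and EIF4H, a helper of the eIF4A helicase, at 0.35 and 0.28, and neither passed.

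mRNAs for enzymes that charge tRNAs, listed with AIMP1, which is not such an enzyme, were called higher or not called. Of these 18, 9 were higher and 0 lower, with a median of 0.44. In the heavy pool their median HMW minus Total was 0.61. VARS1, the valine enzyme, read 1414 (10 Gy) and 1526 (mock) in LMW, against 456 (10 Gy) and 502 (mock) in Total (1.62 ± 0.23, limma adjusted p = 0.000628). FARSA and YARS1, the enzymes for phenylalanine and tyrosine, were at 1.66 ± 0.22 and 1.34 ± 0.16. The lowest members, AIMP1, LARS1 and NARS1, stood between −0.51 and −0.22 and did not pass.

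**Figure D3:**
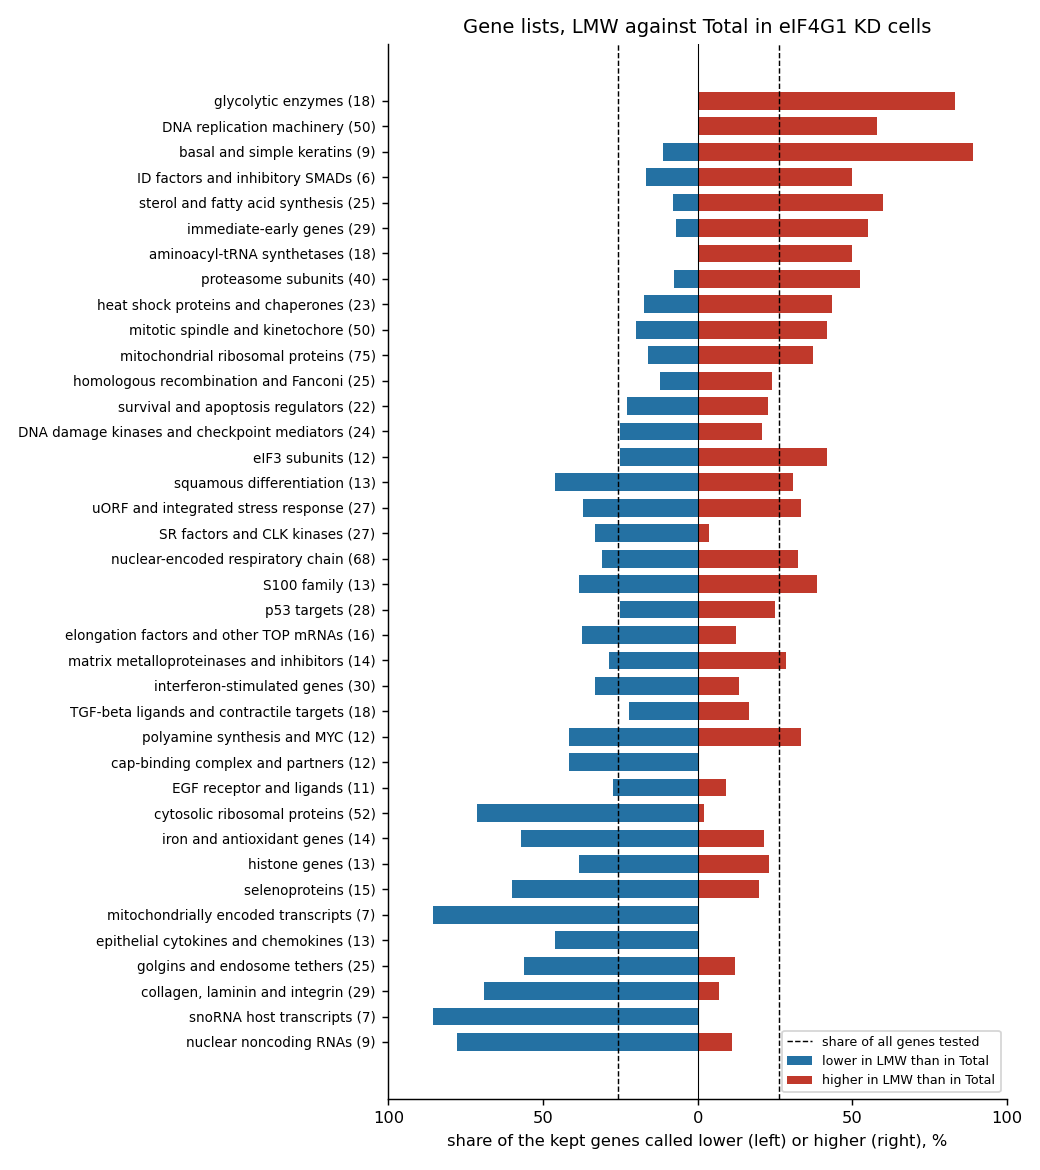
Share of each gene list (number of kept genes in brackets) called lower (blue, left) or higher (red, right) in KD LMW than in KD Total, with lists ordered by their median difference; dashed lines mark the shares of all genes tested, 25.7% lower and 26.3% higher. Keratins and glycolytic enzymes reach far to the right, and nuclear noncoding RNAs, snoRNA hosts, mitochondrially encoded transcripts and ribosomal proteins furthest to the left.

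Like the count over all genes, these counts shrank when a KD condition was left out. Without the mock and without the 10 Gy arrays of KD cells, 11 and 10 genes of collagen, laminin and integrin and 3 and 3 mitochondrially encoded transcripts were lower. By the same settings 9 and 10 genes of the DNA replication machinery, 8 and 6 glycolytic enzymes, 7 and 5 immediate-early genes, 4 and 4 basal and simple keratins, 3 and 5 of sterol and fatty acid synthesis, 4 and 3 proteasome subunits and 3 and 1 aminoacyl-tRNA synthetases were higher. None of these lists had a call in its other direction there, but calls over all genes were also far fewer, which makes such a call less likely.

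Transcripts made inside mitochondria, which cytosolic ribosomes do not translate, were lower in LMW than in Total for 6 of 7 genes, with a median of −0.80. ND2, a subunit of complex I, read 4387 (10 Gy) and 3464 (mock) in LMW, against 11990 (10 Gy) and 11030 (mock) in Total, at −1.56 ± 0.14 (SE, limma adjusted p = 0.000118). ATP6 and ND4 were at −0.95 ± 0.12 and −0.80 ± 0.11. COX1, at −0.18 ± 0.10, was the member not called (limma adjusted p = 0.146). In the heavy pool the same transcripts had a median HMW minus Total of 0.22.

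Nuclear genes of mitochondria did not follow one direction. Of 75 mitochondrial ribosomal proteins 28 were higher and 12 lower. MRPS2 read 1153 (10 Gy) and 1398 (mock) in LMW, against 370 (10 Gy) and 495 (mock) in Total, at 1.57 ± 0.22, whereas MRPL42 read 243 (10 Gy) and 359 (mock) in LMW, against 1109 (10 Gy) and 1289 (mock) in Total, at −2.02 ± 0.21. Of 68 nuclear-encoded respiratory chain genes 22 (32.4%) were higher and 21 (30.9%) lower, against 26.3% and 25.7% of all genes. NDUFV1, the flavin subunit of complex I, was at 1.53 ± 0.16 and CYC1, cytochrome c1, at 1.22 ± 0.17, while the small subunits NDUFC1 and ATP5F1E were at −1.65 ± 0.16 and −1.49 ± 0.19.

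FOS had the highest light pool enrichment among genes at 64 or more on all 4 arrays. This immediate-early transcription factor read 1265 (10 Gy) and 978 (mock) in LMW, against 74.3 (10 Gy) and 77.7 (mock) in Total, a difference of 3.87 ± 0.21 (SE, limma adjusted p = 7.34e-06). Of the 29 immediate-early genes kept, 16 were higher and 2 lower, with a median of 0.60. DUSP1, a MAP kinase phosphatase, read 10410 (10 Gy) and 8902 (mock) in LMW, against 2238 (10 Gy) and 2138 (mock) in Total, at 2.14 ± 0.11. EGR1 was at 1.97 ± 0.21. The 2 lower members were BTG1, an antiproliferative factor, at −0.80 ± 0.19 and ZFP36L1, an mRNA decay factor, at −0.73 ± 0.20. In the heavy pool HMW minus Total was 3.67 for FOS and 1.97 for EGR1.

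ID proteins are small inhibitors of basic helix-loop-helix factors that respond to BMP signals, and of 6 ID factors and inhibitory SMADs 3 were higher and 1 lower. ID1 read 6805 (10 Gy) and 6306 (mock) in LMW, against 988 (10 Gy) and 1399 (mock) in Total, at 2.48 ± 0.23 (SE, limma adjusted p = 0.000133). ID2 read 408 (10 Gy) and 643 (mock) in LMW, against 22.8 (10 Gy) and 30.0 (mock) in Total, so its fitted 4.29 has no exact size. It passed the filter on low values only through the 4 KD pools, where it is high. ID3 was at 1.68 ± 0.22. Of the other members, SMAD7 and BAMBI did not pass and SKIL was lower at −1.39 ± 0.37. HES1, the Notch target repressor, read 1908 (10 Gy) and 1226 (mock) in LMW, against 200 (10 Gy) and 200 (mock) in Total, at 2.93 ± 0.26.

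DNA replication genes stood above Total in both polysome pools of KD cells by their medians. Of 50 kept, 29 (58%) were higher in LMW and 0 lower, against 26.3% and 25.7% of all genes, with a median of 0.94. Their median HMW minus Total was 0.85 and their median HMW minus LMW 0.03. MCM5, a subunit of the replicative helicase, read 429 (10 Gy) and 942 (mock) in LMW, against 74.7 (10 Gy) and 227 (mock) in Total, at 2.29 ± 0.28 (SE, limma adjusted p = 0.000391). CDT1 and CDC45, which load and start that helicase, were at 2.04 ± 0.26 and 1.84 ± 0.24. RFC1, the large subunit of the clamp loader, was lowest, at −0.96 ± 0.44, and did not pass (limma adjusted p = 0.0858). The level of CDC45 after 10 Gy minus that after mock treatment was −1.31 in LMW and −1.40 in Total, with no test.

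Genes of mitosis went both ways. CDC20, the activator of the anaphase-promoting complex, read 2200 (10 Gy) and 5944 (mock) in LMW, against 299 (10 Gy) and 940 (mock) in Total, at 2.77 ± 0.18 (SE, limma adjusted p = 1.91e-05). AURKB and CCNB1, a mitotic kinase and cyclin B1, were at 2.06 ± 0.23 and 1.88 ± 0.16. The giant kinetochore proteins CENPF and CENPE were lower, at −2.10 ± 0.35 and −2.42 ± 0.48. Over the list 21 of 50 were higher and 10 lower. ASPM, a long spindle-pole protein, had the lowest value, −3.10 ± 0.35, but its direction depended on the probe set: the median over its probe sets was 0.82 (limma adjusted p = 0.0195).

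Glycolysis was the most uniform of the metabolic lists. Of 18 kept glycolytic enzymes 15 were higher and 0 lower, with a median of 0.95. The heavy pool gave a median HMW minus Total of 0.70. GPI, the second enzyme of the pathway, read 5630 (10 Gy) and 5483 (mock) in LMW, against 1784 (10 Gy) and 2020 (mock) in Total, at 1.55 ± 0.15 (SE, limma adjusted p = 0.000131). PFKL, the liver form of phosphofructokinase, was at 1.39 ± 0.24. PKM, pyruvate kinase, was at 1.53 ± 0.20, but the median over its probe sets was −0.03. GAPDH was higher by 0.32 ± 0.06, and HK2 and LDHB, at 0.26 and 0.15, did not pass.

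Sterol and fatty acid synthesis had 15 of 25 genes higher and 2 lower, with a median of 0.85. The median HMW minus Total of this list was 0.465. DHCR7, which makes cholesterol from its last precursor, read 1393 (10 Gy) and 1651 (mock) in LMW, against 601 (10 Gy) and 566 (mock) in Total, at 1.38 ± 0.20 (SE, limma adjusted p = 0.000753). MVD and ACAT2 were at 1.56 ± 0.21 and 1.43 ± 0.16. The 2 lower members were SC5D, a desaturase, and STARD4, a sterol carrier, at −1.56 ± 0.35 and −1.82 ± 0.45. Proteasome subunits were higher in 21 of 40 cases and lower in 3, and of 23 chaperones 10 were higher and 4 lower. The ubiquitin receptor ADRM1 and the chaperonin subunit CCT7 had the highest values of these lists, 1.51 ± 0.21 and 1.33 ± 0.15, and the lowest were PSMD12 at −0.93 ± 0.20 and DNAJB4 at −1.95 ± 0.43.

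Keratins of the basal and simple epithelial kind were higher in 8 of 9 cases and lower in 1. Their medians were 0.935 in LMW minus Total and 0.475 in HMW minus Total. KRT5, the basal keratin that typifies this line, read 13950 (10 Gy) and 11490 (mock) in LMW, against 3373 (10 Gy) and 3243 (mock) in Total, at 1.94 ± 0.11 (SE, limma adjusted p = 7.79e-06). KRT16 and KRT15 were at 1.77 ± 0.22 and 1.68 ± 0.24. KRT10, a keratin of suprabasal skin, was the exception, at 359 (10 Gy) and 426 (mock) in LMW, against 974 (10 Gy) and 947 (mock) in Total. The S100 family was even, with 5 of 13 higher and 5 lower: S100P and S100A9 were at 2.87 ± 0.25 and 1.71 ± 0.16, and S100A10 and S100A3 at −1.18 ± 0.14 and −1.04 ± 0.21.

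Some of the highest genes of the comparison were high in both KD polysome pools and low in KD Total RNA. The lists that hold several of them did not lean the same way. Of 14 matrix metalloproteinases and inhibitors 4 were higher and 4 lower (28.6% each), with a median of −0.14 and MMP9 at −1.36. Of 13 squamous differentiation genes 4 (30.8%) were higher and 6 (46.2%) lower. Among all genes 26.3% were higher and 25.7% lower. MMP1, interstitial collagenase, read 110 (10 Gy) and 341 (mock) in LMW and 247 (10 Gy) and 530 (mock) in HMW, against 10.45 (10 Gy) and 13.6 (mock) in Total. MMP10, stromelysin 2, read 97.4 (10 Gy) and 278 (mock) in LMW and 124 (10 Gy) and 299 (mock) in HMW, against 10.7 (10 Gy) and 14.1 (mock) in Total. ELF3, an epithelial ETS factor, read 464 (10 Gy) and 488 (mock) in LMW and 248 (10 Gy) and 233 (mock) in HMW, against 54.6 (10 Gy) and 42.1 (mock) in Total. These 3 genes reached 64 in the 4 KD pools alone and so passed the filter on low values only through them, which fixes that their Total and WT arrays lie lower.

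AQP3, a water and glycerol channel, was above 64 in KD Total as well. It read 934 (10 Gy) and 2016 (mock) in KD LMW and 762 (10 Gy) and 1323 (mock) in KD HMW, against 108 (10 Gy) and 105 (mock) in KD Total, and 51.6 to 59.4 over the 6 WT arrays. SPRR1B and SPRR1A, cornified envelope proteins, had fitted differences of 3.76 and 2.38 with Total values of 48.2 (10 Gy) and 70.5 (mock) and of 32.0 (10 Gy) and 44.9 (mock). TYMP, thymidine phosphorylase, and PGBD5, a domesticated transposase, were at 2.18 ± 0.22 and 2.60 ± 0.24. The immune marker CD14, the one of its list that was kept, read 117 (10 Gy) and 173 (mock) in KD LMW, against 51.5 (10 Gy) and 59.7 (mock) in KD Total. The summed intensity of the 8 immune markers was 278 (10 Gy) and 341 (mock) in KD LMW, against 176 (10 Gy) and 168 (mock) in KD Total. Its part in these results was not tested.

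**Figure D4:**
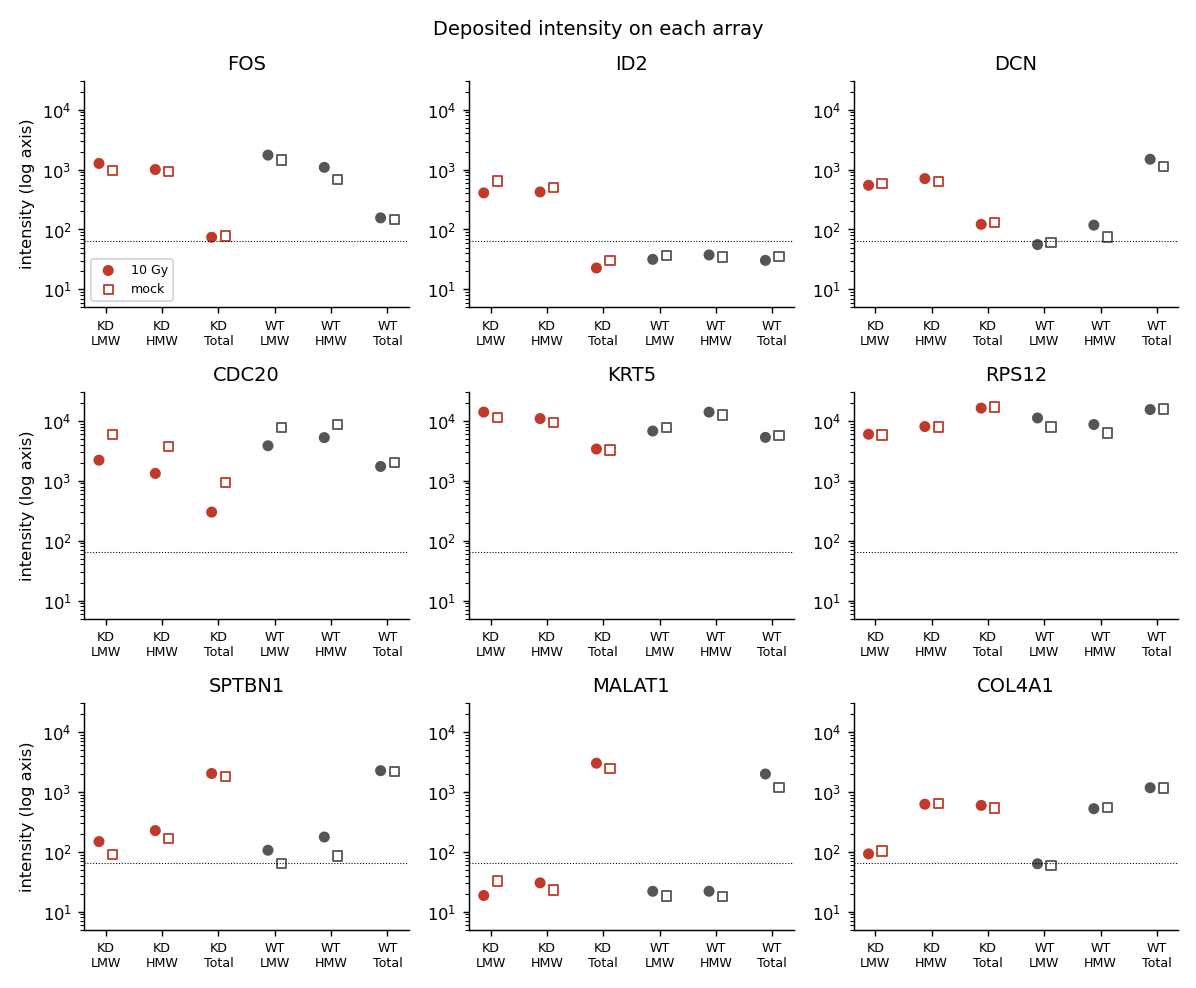
Deposited intensity (log axis) of 9 genes on each of the 12 arrays, with KD arrays in red and WT arrays in grey, 10 Gy as filled circles and mock as open squares, and a dotted line at 64. ID2 is at or above 408 in all 4 KD polysome pools and below 64 on the other 8 arrays, MALAT1 is below 64 in all 8 pools, and COL4A1 is low in the light pools alone.

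Genes tied to the study's theme of survival and DNA repair did not move as a block in the KD light pool. Of 25 kept genes of homologous recombination and the Fanconi pathway 6 were higher and 3 lower, shares of 24% and 12% against 26.3% and 25.7% of all genes. FANCG, a core complex subunit, read 324 (10 Gy) and 543 (mock) in LMW, against 81.1 (10 Gy) and 150 (mock) in Total, at 1.93 ± 0.25 (SE, limma adjusted p = 0.000483). RAD50, a large coiled-coil protein of the break-sensing complex, read 334 (10 Gy) and 210 (mock) in LMW, against 743 (10 Gy) and 747 (mock) in Total, at −1.49 ± 0.44. FANCE and MUS81 were at 1.50 ± 0.24 and 1.03 ± 0.24, and RAD51AP1 at −1.28 ± 0.35.

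Of 24 damage kinases and checkpoint mediators 5 (20.8%) were higher and 6 (25%) lower, near the 26.3% and 25.7% of all genes. CDC25B, a phosphatase that drives entry into mitosis, and XRCC6, the Ku70 end-binding protein, were at 1.61 ± 0.16 and 1.17 ± 0.13. PRKDC, the catalytic subunit of the kinase that Ku recruits, was at −1.10 ± 0.26. In the heavy pool PRKDC read 3190 (10 Gy) and 3051 (mock), against 1134 (10 Gy) and 1213 (mock) in Total. Of 28 p53 targets 7 (25%) were higher and 7 (25%) lower, again near the shares of all genes. PMAIP1, the death protein NOXA, read 391 (10 Gy) and 275 (mock) in LMW, against 1480 (10 Gy) and 1173 (mock) in Total, at −2.01 ± 0.22, and GADD45A and FAS were at −1.55 ± 0.26 and −1.71 ± 0.29. AEN and PLK3 were at 1.32 ± 0.22 and 0.98 ± 0.23.

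Of 22 survival genes 5 (22.7%) were higher and 5 (22.7%) lower, near the 26.3% and 25.7% of all genes. MCL1, an antiapoptotic protein, read 6891 (10 Gy) and 7023 (mock) in LMW, against 3979 (10 Gy) and 3998 (mock) in Total, at 0.80 ± 0.13 (SE, limma adjusted p = 0.00104). BIRC6, a giant inhibitor of apoptosis, and BCL2L2 were at −1.59 ± 0.21 and −1.41 ± 0.20. In the list of upstream open reading frame and stress response genes, 9 of 27 (33.3%) were higher and 10 (37%) lower. ATF4, the stress factor whose upstream frames hold back its translation in unstressed cells, read 1316 (10 Gy) and 1454 (mock) in LMW and 1478 (10 Gy) and 1569 (mock) in HMW, against 4005 (10 Gy) and 4370 (mock) in Total, at −1.60 ± 0.15. Its target TRIB3 was higher, at 1.12 ± 0.22.

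Lists for secreted signals and redox proteins differed. Of 13 epithelial cytokines and chemokines 6 (46.2%) were lower and 0 higher, against 25.7% and 26.3% of all genes, with a median of −0.87. With no filter 7 of 23 were lower and 0 higher, with a median of −0.145. IL24 read 322 (10 Gy) and 272 (mock) in LMW, against 1180 (10 Gy) and 1134 (mock) in Total, at −1.97 ± 0.28 (SE, limma adjusted p = 0.000628), and IL6 and CXCL3 were at −1.57 ± 0.21 and −1.47 ± 0.40. Of 30 interferon-stimulated genes 10 were lower and 4 higher. Selenoproteins, which need recoding of a stop codon, were lower in 9 of 15 cases and higher in 3, with SELENOF at −1.64 ± 0.22 and TXNRD2 at 1.18 ± 0.23.

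FTL, the light chain of ferritin whose mRNA is held off ribosomes by iron regulatory proteins, read 2765 (10 Gy) and 3068 (mock) in LMW, against 10810 (10 Gy) and 12060 (mock) in Total (−1.97 ± 0.13, limma adjusted p = 1.91e-05). It was as low in HMW, at 2570 (10 Gy) and 2587 (mock). KEAP1, the sensor of oxidative stress, was higher in LMW by 1.14 ± 0.19. Of 18 TGF-beta ligands and contractile targets 3 (16.7%) were higher and 4 (22.2%) lower. Of 11 genes for the EGF receptor and ligands 1 (9.09%) was higher and 3 (27.3%) lower. Among all genes 26.3% were higher and 25.7% lower. INHBA and TGFB2, both TGF-beta family ligands, were at −2.01 ± 0.54 and −1.77 ± 0.39, and the contractile targets CNN2 and ACTA2 at 1.36 ± 0.19 and 0.97 ± 0.21. Of 13 histone genes 3 were higher and 5 lower, led by the linker histones H1-10 at 2.10 ± 0.27 and H1-2 at −1.61 ± 0.43.

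The heavy pool was set against the light pool of the same KD cells to see where these pools differ. Of 10157 genes 1029 (10.1%) were higher and 1100 (10.8%) lower in HMW than in LMW, together 21% (limma, adjusted p under 0.05), and at 2-fold or more 709 were higher and 109 lower. COL4A5, a basement membrane collagen, read 1816 (10 Gy) and 1418 (mock) in HMW, against 166 (10 Gy) and 194 (mock) in LMW, at 3.17 ± 0.29 (SE, limma adjusted p = 0.00043). HERC2, a giant ubiquitin ligase of the damage response, read 921 (10 Gy) and 640 (mock) in HMW, against 101 (10 Gy) and 93.2 (mock) in LMW. TPR, a long coiled-coil protein of the nuclear pore, read 1449 (10 Gy) and 1162 (mock) in HMW, against 188 (10 Gy) and 145 (mock) in LMW. FRYL, CENPF and the integrin ITGA2 were at 2.93 to 3.10. All of these genes were lower in LMW than in Total, and their HMW minus Total differences were 0.55 to 1.26.

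Counts by list ran the same way. The collagen, laminin and integrin list had 18 of 29 genes higher in HMW than in LMW and 0 lower, golgins 10 of 25 and 1, mitotic genes 23 of 50 and 3, and mitochondrially encoded transcripts 7 of 7 and 0. Ribosomal proteins had 10 of 52 higher and 2 lower. Genes lower in HMW than in LMW had varied functions. SCO2, a copper chaperone of cytochrome oxidase, read 1350 (10 Gy) and 1194 (mock) in HMW, against 2961 (10 Gy) and 3008 (mock) in LMW, at −1.23 ± 0.23 (limma adjusted p = 0.0134). CTSZ, a lysosomal protease, read 180 (10 Gy) and 117 (mock) in HMW, against 273 (10 Gy) and 763 (mock) in LMW. TNKS2, HIRA, SCRN2 and SIVA1 were at −1.40 to −1.28. For SCRN2 the value was 0.01 once _x_at and _s_at probe sets were left out. These counts lean on the spread taken from all 12 arrays: 6390 genes were called without the 3 WT mock arrays, and 32 and 56 when a KD condition was left out.

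KD and WT cells were compared by the difference of their LMW minus Total differences, tested in the same fit. Of 10157 genes 818 (8.05%) were higher and 362 (3.56%) lower in KD than in WT, together 11.6%. Every called gene had that sign in the 10 Gy arrays and in the mock arrays taken alone, which a call on their mean favours. Leaving out a condition leaves its genotype a lone pair, which is then assumed to vary like the other conditions. Without the WT mock arrays, whose LMW and Total pair stood apart, 2276 genes were higher and 2336 lower, so the surplus of higher calls was not seen there. With only the 8 arrays of this comparison 217 were higher and 12 lower, and without a KD condition 33 and 37 were called in all.

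HSD17B2, which inactivates oestradiol, read 1819 (10 Gy) and 1516 (mock) in KD LMW, against 418 (10 Gy) and 395 (mock) in KD Total. In WT cells it read 180 (10 Gy) and 141 (mock) in LMW, against 763 (10 Gy) and 503 (mock) in Total. The differences had opposite signs, 2.03 in KD and −1.96 in WT cells, and were 3.99 ± 0.29 apart (SE, limma adjusted p = 0.000164). DCN, the proteoglycan decorin, did the same: it read 547 (10 Gy) and 583 (mock) in KD LMW, against 122 (10 Gy) and 132 (mock) in KD Total, and 56.0 (10 Gy) and 61.4 (mock) in WT LMW, against 1487 (10 Gy) and 1134 (mock) in WT Total. Its Total level was thus lower in KD than in WT cells, while its level in both polysome pools was higher. S100P stood at 2.87 in KD and −0.44 in WT cells.

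C3, the complement protein, was close to its Total level in KD LMW, 5476 (10 Gy) and 4735 (mock), against 6505 (10 Gy) and 5406 (mock) in KD Total. In WT cells it read 226 (10 Gy) and 163 (mock) in LMW, against 3591 (10 Gy) and 2970 (mock) in Total, so that the KD minus WT difference was 3.87 ± 0.22 (limma adjusted p = 3.83e-05). EPRS1, the fused enzyme for glutamate and proline tRNAs, differed by 3.40 ± 0.38, SLC7A2, an arginine transporter, by 3.32 ± 0.47, and EFEMP1, a fibulin, by 3.26 ± 0.33. Other readable probe sets of EPRS1 and EFEMP1 did not all share the sign of the KD difference. CDH1 differed by 3.55 (limma adjusted p = 0.00032), at −0.73 in KD and −4.29 in WT cells. Its WT LMW arrays lay below 64, so the WT value and the difference have no exact size.

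By list, the KD minus WT difference was called higher for 19 of 29 matrix and integrin genes and lower for 0, for 12 of 18 tRNA synthetases and 0, for 21 of 50 mitotic genes and 0, for 11 of 23 chaperones and 1, and for 7 of 7 mitochondrially encoded transcripts and 0. ND2 was at −1.56 in KD and −4.01 in WT cells, a difference of 2.45 (limma adjusted p = 0.00032). LARS1 and HSPA9, a tRNA synthetase and the mitochondrial chaperone mortalin, differed by 1.80 and 1.79. Ribosomal proteins went the other way, with 23 of 52 lower and 0 higher and medians of −0.39 in KD and −0.09 in WT cells. RPS25 was at −1.45 in KD and −0.36 in WT cells, a difference of −1.09 (limma adjusted p = 0.00294). The 10 Gy pairs taken alone gave these list medians, first in KD and then in WT cells, with no test. They were −1.369 and −2.545 for collagen, laminin and integrin, and 0.517 and −0.728 for aminoacyl-tRNA synthetases. For mitochondrially encoded transcripts they were −0.769 and −2.46, and for the 52 cytosolic ribosomal proteins −0.404 and −0.009. None of the 52 differences was called when a KD condition was left out, 2 were without a trend in the variance, and 5 of 21 were lower without _x_at and _s_at probe sets of the cytosolic ribosomal proteins.

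**Figure D5:**
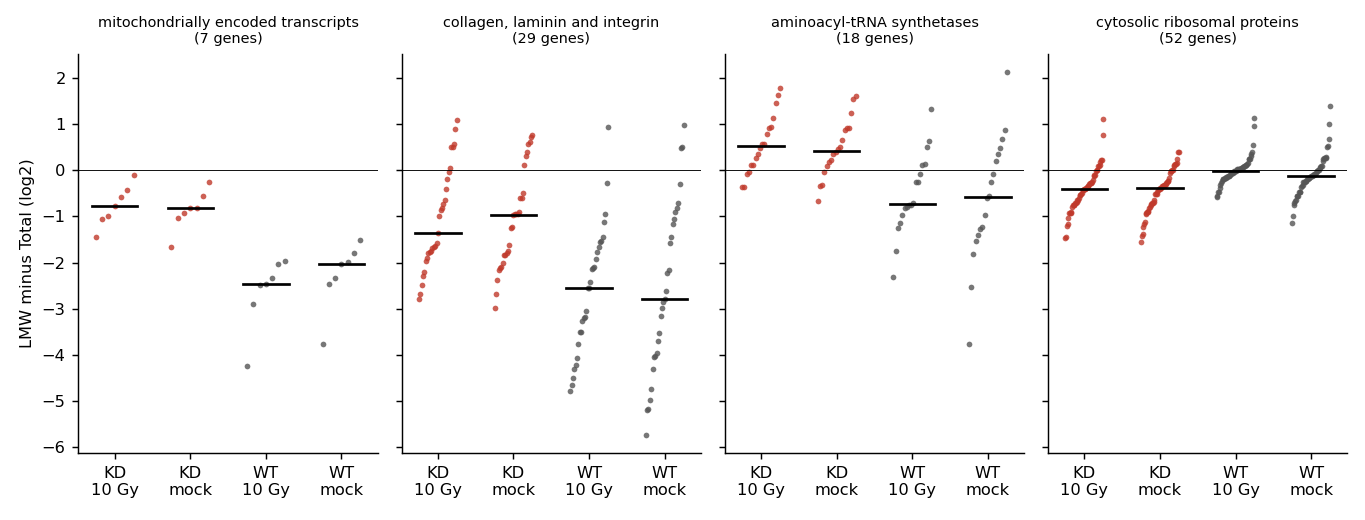
LMW minus Total (log2) of each gene of 4 lists in the KD 10 Gy, KD mock, WT 10 Gy and WT mock pairs, with 1 point per gene in rising order and a bar at the median. Mitochondrially encoded transcripts have medians of −0.77 and −0.82 in the KD pairs and −2.46 and −2.03 in the WT pairs, and ribosomal proteins −0.40 and −0.39 in the KD pairs and −0.01 and −0.12 in the WT pairs.

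In the other direction, IFI6, named above among the lowest in KD cells, was at −2.84 in KD and −0.46 in WT cells, a difference of −2.39 ± 0.36 (SE, limma adjusted p = 0.00626), and its KD Total level, 704 (10 Gy) and 688 (mock), was above that of WT Total, 127 (10 Gy) and 94.0 (mock). NEK7, a kinase that also assembles the NLRP3 inflammasome, read 140 (10 Gy) and 128 (mock) in KD LMW, against 804 (10 Gy) and 731 (mock) in KD Total, and 1673 (10 Gy) and 473 (mock) in WT LMW, against 1323 (10 Gy) and 1384 (mock) in WT Total. The WT arrays of NEK7 thus pointed in opposite directions. HES4, SPTSSA, IFRD1 and MEX3D differed by −1.81 to −1.64. FTL, EIF4E and PMAIP1 were also lower in the KD comparison than in the WT one, by −1.58, −1.52 and −1.58.

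The effect of 10 Gy on the light pool of KD cells rests on 1 pair against 1 and was not tested. Of 10157 genes 20 (0.197%) had an LMW minus Total difference at least 2-fold higher in the 10 Gy pair and 21 (0.207%) at least 2-fold lower. GNL3L, a nucleolar GTPase, read 489 (10 Gy) and 240 (mock) in LMW and 81.0 (10 Gy) and 115 (mock) in Total, a change of 1.53. SERPINB3, a protease inhibitor of squamous cells, read 838.9 (10 Gy) and 392.1 (mock) in LMW and 135 (10 Gy) and 180 (mock) in Total, a change of 1.52. The damage kinase ATM read 195 (10 Gy) and 98.9 (mock) in LMW and 155 (10 Gy) and 179 (mock) in Total, a change of 1.19 that was −0.06 once _x_at and _s_at probe sets were left out. FRYL and ANK3 changed by 1.12 each.

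ERGIC1, a cargo receptor between endoplasmic reticulum and Golgi, had the lowest value, −1.78, at 555 (10 Gy) and 1784 (mock) in LMW and 932 (10 Gy) and 875 (mock) in Total. RCC1, the exchange factor of the GTPase Ran, read 162 (10 Gy) and 802 (mock) in LMW and 135 (10 Gy) and 222 (mock) in Total. RAD23B, a partner of the nucleotide excision repair protein XPC, read 690 (10 Gy) and 2095 (mock) in LMW and 2209 (10 Gy) and 2250 (mock) in Total. METTL21A was at −1.15. SGMS2 was at −1.13, but at 0.24 with the median of probe sets. AQP3 was at −1.15, being lower after 10 Gy in LMW but not in Total.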

How the data were processed

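RNA of MCF10A cells was measured on 12 oligonucleotide arrays, 1 for each of 4 conditions and 3 preparations. The deposited values are linear probe set intensities; per the submitters' processing notes the authors used RMA, which corrects background, normalises and summarises probes, with a version and joint normalisation not given in the sources used here. They were turned to log2 here. Array medians were 22.6 to 24.4, and the number of arrays limits the precision.

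Of 54675 probe sets 41097 had 1 symbol in the platform annotation, 1801 several and 11777 were not listed. A gene was read by its single-symbol probe set of highest mean (19775 genes), and kept at a log2 of 6 (intensity 64) or more in 4 or more arrays (10157). The fit in limma 3.58.1 (R 4.3.3) used all 12 arrays, with the condition as a block, fraction effects within each genotype, a trended eBayes prior and a Benjamini-Hochberg threshold of 0.05. It left 4 residual degrees of freedom and a prior of 5.95. Values are differences of log2 intensity ± SE over 2 pairs. LMW minus Total, HMW minus Total and HMW minus LMW share arrays. A probe set counted as readable at a log2 of 6 or more in at least 2 of the 4 arrays.

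Members and the 43 gene lists were chosen with earlier results of these data known. Named genes are EIF4G1, the 10 highest and 10 lowest called genes at 64 or more on all 4 arrays, the 6 highest and 6 lowest of the others, 6 each way for the other comparisons, and the 3 highest and 3 lowest of a list. Not all of these are described, 1 is not reported here, and some further list members in the text (such as CDH1, EIF3A and PRKDC) were chosen after their values were seen. Start windows and spans are from RefSeq, and 99.9% of kept genes had a span. The span and the start motif were added after seeing the data. The scripts were tested on simulated data. Alternatives were other filters, probe sets, scalings, variance models and blocks, and leaving out arrays.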

Additional observations from a re-analysis of the deposited data

Results flagged for a closer look

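The difference between KD and WT cells in LMW minus Total was tested itself (limma, adjusted p under 0.05), and 818 genes were higher and 362 lower. Among genes at 64 or more on all 8 arrays the highest were HSD17B2 at 3.99, C3 at 3.87, EPRS1 at 3.40, SLC7A2 at 3.32, S100P at 3.31 and EFEMP1 at 3.26 on the log2 scale. The lowest were IFI6 at −2.39, NEK7 at −1.91, HES4 at −1.81, SPTSSA at −1.69, IFRD1 at −1.68 and MEX3D at −1.64. Each of these 12 genes had the same sign within the 10 Gy arrays and within the mock arrays, which their choice by the mean of both favours. Counted at 2-fold without a test, 1300 genes were higher and 1054 lower within the 10 Gy arrays, and 1766 higher and 670 lower within the mock arrays.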

How the results depend on the processing

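For LMW minus Total in KD cells (5281 calls), 11 other settings gave 3523 to 7912 calls, within 1.5 times. The arrays of the comparison alone gave 8030, and leaving out a KD condition 746 to 748. For KD minus WT (1180 calls) the count was 718 with the median of probe sets, 514 without _x_at and _s_at probe sets, 4612 without the WT mock arrays, 294 without the condition as a replicate block, 229 with only the arrays of the comparison and 33 to 37 without a KD condition. For HMW minus LMW (2129 calls) it was 1416 with no filter, 1283, 829, 6390, 195, 6640 and 32 to 56 in that order. Genes at 2-fold between 10 Gy and mock numbered 101 with no filter, against 41. Of the named genes' values 6 turned their sign: ASPM to 0.823 (median) and 0.981 (no _x_at or _s_at), PKM to −0.028 and SGMS2 to 0.239 (median), SCRN2 to 0.013 and ATM to −0.057 (no _x_at or _s_at). The cause was not tested. Centring the arrays moved the median of all genes to 0.164 in LMW minus Total. The labels give no replicate numbers, so arrays are paired by condition alone, in the block. The planned relation to protein length was not run. Genes below 64 in a group have no exact difference.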
